A study of Mus musculus with 44 samples.

Results

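A set of 10 genes of natural killer (NK) cells and cytotoxic granules was followed through RNA-seq libraries of dendritic cell (DC) preparations: *Gzma*, *Gzmb*, *Prf1*, *Nkg7*, *Klrb1c*, *Ncr1*, *Klre1*, *Klrk1*, *Klrd1* and *Eomes*. They were taken from the expression table by symbol, from a set proposed with earlier results of these data known, and all 10 were among the 14699 genes of the expression table and among the 11963 that passed the filter for testing (at least 1 CPM in 5 libraries or more), which each member also met within the control mice with tumour cells alone. The 44 libraries, 1 per mouse, came from CD45+CD11c+MHCIIhigh cells sorted from the draining inguinal lymph nodes of young adult female mice, 24 h after a subcutaneous injection at zeitgeber time (ZT, hours after light onset) 3, 9, 15 or 21. Control mice (genotype label WT) received B16-F10-OVA cells, a mouse melanoma line carrying ovalbumin, in 5 mice per timepoint (20 libraries). Mice labelled KO received the same cells in 3 mice per timepoint (12 libraries), and sham-injected control mice received PBS in 3 mice per timepoint (12 libraries). The KO label stands for *Clec9a-cre:Bmal1flox* mice, in which Cre is driven from the locus of a receptor of conventional DCs and their precursors, so that other cells in the gate need not have recombined the clock gene. The sham-injected mice analysed here were all control mice, so the KO label was compared with control mice only where both had tumour cells.

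NK cells are innate lymphocytes that kill target cells by releasing granules in which perforin opens a path for granzymes, proteases that start cell death. Whether they do so is set by a balance of activating and inhibitory receptors, many of which are lectin-like proteins encoded together in the NK gene complex on chromosome 6. Mouse NK cells carry some CD11c, one of the surface proteins used here to sort DCs, and activated CD8+ T cells share much of the granule programme. The MHCIIhigh part of the gate would be expected to remove most NK and T cells of mice, which carry little or no MHC class II. In such bulk samples, fewer cells of a type and less RNA of that type per cell cannot be told apart.

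The values were read counts on genes that the authors had scaled to library size, in the unit CPM. Per kilobase of exon, the 3 most abundant members in control mice with tumour cells were *Nkg7* (median 23.7 CPM per kb), *Klrd1* (13.2) and *Klrk1* (6.13). The other 7 members lay between 0.225 CPM per kb for *Klre1* and 1.82 for *Gzma*. In sham-injected mice the per-kilobase order was *Nkg7* (77.0), *Gzma* (33.8), *Klrd1* (16.2), *Gzmb* (11.0) and *Ncr1* (10.1), with *Klrk1* next at 9.17. *Gzma*, *Gzmb* and *Ncr1* thus ranked higher in sham-injected mice, whereas *Nkg7* led in each group. In libraries labelled KO the leading members were *Nkg7* (47.0), *Gzma* (11.5) and *Klrd1* (11.3), and the last 2 had nearly the same median.

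By the RefSeq annotation of GRCm38.p6, the reference build of the mm10 coordinates used by the authors, 4 receptor genes lie in the NK gene complex: *Klrb1c* at chr6:128778485-128788641, *Klre1* at chr6:129559365-129585828, *Klrd1* at chr6:129588092-129598775 and *Klrk1* at chr6:129610323-129623903. *Ncr1* (chr7:4337715-4345184) and *Nkg7* (chr7:43437138-43438246) share chromosome 7 without being neighbours. The granule genes are scattered, with *Prf1* at chr10:61297751-61304684, *Gzma* at chr13:113093824-113100981 and *Gzmb* at chr14:56258836-56262334. *Eomes* lies at chr9:118478186-118486132. The *Clec9a* gene, whose locus drives Cre in the mice labelled KO, sits in the same complex at chr6:129408862-129424764, 134.6 kb from *Klre1*, 163.3 kb from *Klrd1*, 185.6 kb from *Klrk1* and 620.2 kb from *Klrb1c*. *Klrb1c* reads came out as fractions of a read in 88.6% of libraries, as when a read is split between near-identical genes, so its level is uncertain with respect to its *Klrb1* relatives; for *Gzmb* this was 4.55% of libraries and for the other 8 members 0.

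Because most of these genes moved together in the comparisons that follow, the 250 bases before each RefSeq start site (GRCm38.p6) were searched on both strands for 9 short motifs, chosen after the values were known. A start site was available for 9 members, all but *Klrd1*. For *Klre1* the 2 start sites used lie inside the annotated gene, 18.85 and 18.92 kb after its 5′ end, and the core motif was found before the first of them; for the other members the start sites lay within 0.085 kb of the 5′ end. The core TGTGGT, which is bound by RUNX factors, was found in 8 of the 9, *Eomes* being the exception, and in 15.9% of the 27025 genes searched. A gene was counted when any of its start sites had the motif before it. The longer form TGTGGTT, which contains the core, was found in *Gzma*, *Gzmb*, *Klrk1*, *Klre1* and *Ncr1*, against 5.08% of all genes searched. The E-box CACGTG, the letters bound by CLOCK and BMAL1, was found in none of the 9 members and in 6.86% of all genes searched. The stretches that hold the core motif are printed below 5′ to 3′ along the strand of the gene, with capitals marking TGTGGT or its reverse complement ACCACA.
Gzma (chr13:113100999-113101058, minus strand): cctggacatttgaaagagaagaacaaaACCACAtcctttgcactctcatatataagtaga
Gzmb (chr14:56262336-56262395, minus strand): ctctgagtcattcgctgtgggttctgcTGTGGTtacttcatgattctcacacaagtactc
Prf1 (chr10:61297679-61297738, plus strand): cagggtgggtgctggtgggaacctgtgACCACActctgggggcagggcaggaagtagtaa
Nkg7 (chr7:43437028-43437087, plus strand): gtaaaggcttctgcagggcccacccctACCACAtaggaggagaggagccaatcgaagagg
Klrb1c (chr6:128788698-128788757, minus strand): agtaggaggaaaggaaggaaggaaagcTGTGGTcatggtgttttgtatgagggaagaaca
Ncr1 (chr7:4337647-4337706, plus strand): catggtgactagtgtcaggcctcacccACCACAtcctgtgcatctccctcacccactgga
Klre1 (chr6:129577963-129578022, plus strand): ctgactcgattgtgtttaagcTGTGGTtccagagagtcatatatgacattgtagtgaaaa
Klrk1 (chr6:129623961-129624020, minus strand): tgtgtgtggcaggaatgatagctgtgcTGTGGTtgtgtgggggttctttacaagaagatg
The copy of the core nearest to the start site is the one shown, and it lay between 28 bases (*Gzmb*) and 223 bases (*Klre1*) before it. *Gzmb* and *Ncr1* held 2 copies each, and the longer form of *Ncr1* is its other copy, 170 bases before the start site and outside the stretch shown. Of the remaining searches, ACTTCC was found in *Prf1* and *Klrb1c* (22.2% of all genes searched), CAGGAAG in *Nkg7* and *Prf1* (12.1%), and TGANTCA in *Gzmb* (7.82%). AGGTGTG, a T-box core, was found in *Nkg7* (5.88%), as were its shorter form GGTGTG (18.3%) and TTCNNNGAA (8.13%). A match is a description of the letters and not of binding.

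Depth differed between the groups. Reads on genes ran from 20088011 to 55799162 per library, with a median of 23707307 in control mice with tumour cells, 36964046 in libraries labelled KO and 37898703 in sham-injected mice, and 12 of 12 KO and 11 of 12 sham libraries were deeper than every control tumour library. Sequencing depth and group cannot be told apart here, and neither can any shared handling that went with the groups. The sorted cells carried the markers of their gate: the summed level of 14 conventional DC genes ran from 31500 to 48520 CPM across control tumour libraries, from 32870 to 44100 across libraries labelled KO and from 32850 to 46330 across sham libraries. *Arntl* (chr7:113178471-113314126), the gene for BMAL1, was not lower under the KO label: it measured 8.67, 14.8 and 24.4 CPM (lowest, median and highest library) in control mice and 11.5, 18.0 and 38.0 in libraries labelled KO, a log2 difference of 0.38 ± 0.12 (SE) with an adjusted p of 0.0153 that became 0.0560 with median-of-ratios scaling. These are reads over the whole gene and do not isolate the floxed exon. The label is therefore used as a name for these libraries, and no direction is read as the effect of a lost gene.

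In the levels of the members, some sham libraries were higher than the rest. Replicate 2 at ZT15 had the highest level of all 10 among the sham libraries, among them *Nkg7* at 263.0 CPM, *Gzma* at 200.1, *Prf1* at 39.4 and *Ncr1* at 39.5. Replicate 3 at ZT9 was also high, with *Nkg7* at 118.3, *Gzma* at 87.5 and *Ncr1* at 29.8 CPM. The 10 members summed to 793.1 CPM in the first and 405.4 in the second, followed by replicate 1 at ZT3 with 353.6, against 174.5 to 268.4 in the other 9. The first 2 are called here the sham libraries that stood apart, although the gap from the second to replicate 1 at ZT3 was small, and the member tests were also run without all 3. Of the libraries labelled KO, replicate 1 at ZT15 and replicate 3 at ZT21 also stood above the rest of their group, with the 10 members summing to 281.7 and 250.9 CPM against 101.6 to 180.2 in the other 10. The main results that use the sham mice or the KO label are also given without the 2 libraries of that group, an alternative chosen after the values were seen. The sum of the 10 members was 73.1, 92.8 and 128.0 CPM (lowest, median and highest library) in control mice with tumour cells, 101.6, 132.2 and 281.7 in libraries labelled KO, and 174.5, 244.5 and 793.1 in sham-injected mice. All 20 control tumour libraries were below every sham library, and 17 of the 20 were below every library labelled KO.

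**Figure D1:**
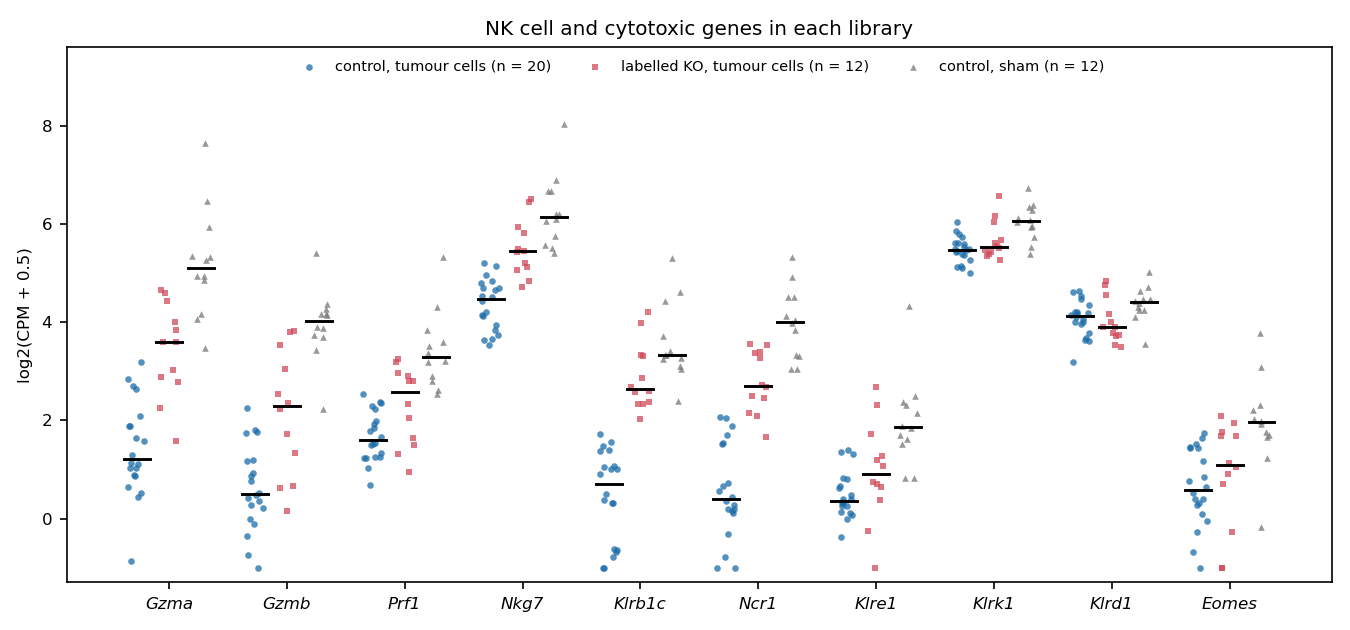
Level of each of the 10 members as log2(CPM + 0.5) in every library, by group: control mice with tumour cells (n = 20), libraries labelled KO with tumour cells (n = 12) and sham-injected control mice (n = 12), with the group median as a black bar. For *Gzma*, *Klrb1c*, *Ncr1* and *Nkg7* the 20 control tumour libraries lie below all 12 sham libraries, whereas these groups overlap for all other members.

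The first comparison asked how the NK and cytotoxic genes of the node preparation differed 24 h after tumour cells and after PBS. With the 4 timepoints averaged, 9 of 10 members were lower in control mice with tumour cells than in sham-injected mice, by 1.49-fold (*Klrk1*) to 13.7-fold (*Gzma*), and only *Klrd1* did not pass the test. Of all genes tested, 37.9% differed in either direction and 24.6% were lower. The median log2 difference was −1.82 over the members and −0.04 over all genes. Here and below, differences are on the log2(CPM + 0.5) scale, which understates changes of low genes, and adjusted p-values are Benjamini-Hochberg values over all 11963 genes from limma.

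The granule genes all fell. *Gzma*, the gene for granzyme A, measured 0.0464, 1.83 and 8.64 CPM (lowest, median and highest library) in control mice with tumour cells and 10.7, 34.0 and 200.1 in sham-injected mice. No tumour library reached the lowest sham library. The difference was −3.78 ± 0.33 (SE), or 13.7-fold, with an adjusted p of 7.08e-10. *Gzmb*, the gene for granzyme B, ran from 0 over 0.913 to 4.26 CPM with tumour cells and from 4.21 over 15.8 to 42.0 in sham mice. Here 19 of 20 tumour libraries were below every sham library, and the difference was −3.32 ± 0.27 (adjusted p = 2.61e-10). *Prf1*, which encodes the pore-forming perforin, measured 1.11, 2.54 and 5.33 CPM with tumour cells and 5.32, 9.30 and 39.4 in sham mice, again with 19 of 20 below every sham library. Its difference was smaller, −1.75 ± 0.23 (adjusted p = 6.16e-07). *Nkg7*, a membrane protein of cytotoxic granules, measured 11.0, 21.7 and 36.1 CPM with tumour cells and 42.1, 70.4 and 263.0 in sham mice. The groups did not overlap, and the difference was −1.89 ± 0.17 (adjusted p = 1.28e-09).

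Among the receptors, *Ncr1* and *Klrb1c* changed by amounts close to those of the granzymes. *Ncr1*, which encodes the activating receptor NKp46 of NK cells and some innate lymphoid cells, measured 0, 0.824 and 3.68 CPM with tumour cells, with 2 of 20 libraries at 0, and 7.78, 15.6 and 39.5 in sham mice. All 20 tumour libraries lay below all sham libraries, and the difference was −3.43 ± 0.25 (adjusted p = 2.26e-11). *Klrb1c*, the gene for the NK1.1 antigen, measured 0, 1.15 and 2.78 CPM with tumour cells and 4.72, 9.50 and 39.2 in sham mice. It did not overlap either, with a difference of −3.13 ± 0.28 (adjusted p = 1.20e-09). *Klre1*, an NK cell lectin-like receptor, was lower by −1.51 ± 0.21 (adjusted p = 1.82e-06), from medians of 3.14 CPM in sham mice to 0.785, and 16 of 20 tumour libraries were below every sham library.

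The receptors that were already well expressed with tumour cells moved least. *Klrk1*, which encodes the activating receptor NKG2D, measured 31.6, 44.1 and 65.3 CPM with tumour cells and 41.6, 65.9 and 105.3 in sham mice. The groups overlapped, with 7 of 20 tumour libraries below every sham library, and the difference was −0.57 ± 0.12 (adjusted p = 3.31e-04). *Klrd1*, which encodes CD94, the partner of NKG2 receptors, measured 8.58, 16.9 and 24.1 CPM with tumour cells and 11.3, 20.7 and 31.9 in sham mice. Only 1 tumour library was below every sham library, and the difference of −0.31 ± 0.13 missed the threshold (adjusted p = 0.0540). It passed in 3 of 11 alternative settings (adjusted p of 0.0191 to 0.217 over them) and in 6 of 32 omissions of a single library (0.0131 to 0.117). *Eomes*, a T-box transcription factor of NK cells and effector CD8+ T cells, was low in both, with medians of 0.994 and 3.39 CPM, and was lower with tumour cells by −1.33 ± 0.33 (adjusted p = 0.00200).

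For 4 members, *Gzma*, *Nkg7*, *Klrb1c* and *Ncr1*, there was no overlap between the 20 tumour and 12 sham libraries, which was so for 1.73% of all genes. Without the 2 sham libraries that stood apart, 9 members were still called, while 2550 of all genes were called lower and 1325 higher. *Gzma* was then at −3.42, *Ncr1* at −3.19, *Nkg7* at −1.66 and *Eomes* at −0.95 (adjusted p = 0.0172 for *Eomes*). Without sham replicate 1 at ZT3 as well, 9 members were called, while 2393 of all genes were called lower and 1189 higher. *Gzma* was in that case at −3.30, *Ncr1* at −3.11, *Nkg7* at −1.59 and *Eomes* at −0.91 (adjusted p = 0.0318 for *Eomes*). Median-of-ratios scaling changed the split of calls over all genes from 1589 higher and 2940 lower to 2079 higher and 2430 lower.

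The difference was seen at each timepoint. At ZT3, 7 members were called, all of them lower (10.5% of all genes were called there in either direction), at ZT9 7 (16.3%), at ZT15 7 (17.6%) and at ZT21 6 (9.21%). *Gzma* differed by −3.54 at ZT3, −4.35 at ZT9, −3.80 at ZT15 and −3.42 at ZT21. *Ncr1* differed by −2.59, −3.81, −3.29 and −4.05 in the same order. *Nkg7* differed by −1.72, −2.49, −2.28 and −1.08, the last with an adjusted p of 0.0443. *Prf1* was called at ZT3, ZT9 and ZT15 but not at ZT21 (−1.22, adjusted p = 0.0942), while *Klrk1*, *Klrd1* and *Eomes* were called at no single timepoint. Without the 2 sham libraries that stood apart the counts were 8 at ZT3, 6 at ZT9, 5 at ZT15 and 8 at ZT21. The shares of all genes called in that setting are not given here, so the changes in these counts are not read as particular to the members. The interaction of treatment with time was tested directly, and limma called 0 members and 0 of all genes, although 1 member and 1423 genes (11.9%) had an unadjusted p under 0.05.

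**Figure D2:**
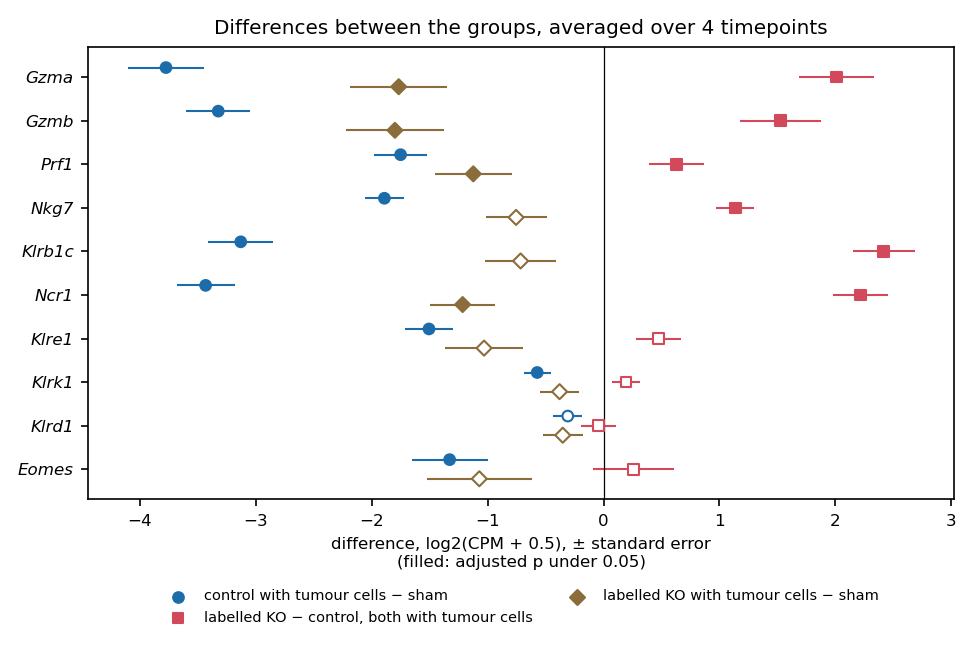
Log2 difference of each member with its SE, on the log2(CPM + 0.5) scale, averaged over the 4 timepoints, for tumour cells against sham in control mice (circles), the KO label against control (squares) and the KO label against sham (diamonds), with filled symbols for an adjusted p under 0.05. In the order named, 9 members are called lower, 6 higher and 4 lower, and each pair of comparisons shares a group.

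The second comparison asked whether the members differed between mice labelled KO and control mice when both had received tumour cells. With the timepoints averaged, 6 of 10 members were higher under the KO label, by 1.54-fold (*Prf1*) to 5.33-fold (*Klrb1c*), and none was lower. Of all genes, 33.7% differed and 23.5% were higher, with 2813 higher and 1218 lower, a split that became 1748 higher and 1753 lower with median-of-ratios scaling. The median difference was 0.88 over the members and 0.10 over all genes. These contrasts use the same 20 control tumour libraries as the comparison with sham mice, so the directions are not independent of each other.

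*Klrb1c* and *Ncr1* had the largest estimates. *Klrb1c* measured 3.59, 5.73 and 17.9 CPM in libraries labelled KO, all above the highest control library at 2.78 CPM, and it was the only member without overlap over all timepoints (0.435% of all genes). Its difference was 2.42 ± 0.27 (adjusted p = 1.07e-07). *Ncr1* measured 2.68, 5.996 and 11.3 CPM under the label, and 16 of 20 control libraries were below all of them. The difference was 2.22 ± 0.24 (adjusted p = 6.79e-08). The remaining receptors were not called: *Klre1* differed by 0.47 ± 0.19 (adjusted p = 0.0567), *Klrk1* by 0.19 ± 0.12 (0.226) and *Klrd1* by −0.04 ± 0.15 (0.849). *Klre1* passed in 2 of 9 alternative settings (adjusted p of 0.00210 to 0.206 over them) and in 6 of 32 omissions of a single library (0.0191 to 0.152). The levels of these 3 in libraries labelled KO ran from 0 over 1.39 to 5.91 CPM for *Klre1*, from 38.2 over 45.7 to 94.7 for *Klrk1* and from 10.8 over 14.5 to 28.0 for *Klrd1*, each overlapping the control mice.

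Of the granule genes, *Gzma* measured 2.50, 11.6 and 24.6 CPM under the KO label. The difference from control mice was 2.01 ± 0.32, or 4.02-fold (adjusted p = 2.70e-05), and 12 of 20 control libraries were below every library labelled KO. *Gzmb* measured 0.610, 4.42 and 13.5 CPM and was higher by 1.52 ± 0.35 (adjusted p = 0.00147). *Nkg7* measured 25.7, 43.0 and 90.2 CPM and was higher by 1.14 ± 0.16 (adjusted p = 6.47e-06). *Prf1* measured 1.44, 5.52 and 9.07 CPM, and its difference of 0.63 ± 0.24 was just past the threshold (adjusted p = 0.0431). This call was lost in 19 of 32 omissions of a single library, where the adjusted p ranged from 0.0128 to 0.111, and in 6 of the 9 other settings run for it. *Eomes* differed by 0.26 ± 0.35 (adjusted p = 0.608), with 2 of 12 libraries labelled KO at 0. Without the 2 KO libraries that stood apart, 5 members were called, while 2485 of all genes were called higher and 1202 lower. The 5 were *Klrb1c* at 2.17, *Ncr1* at 1.99, *Gzma* at 1.68, *Gzmb* at 1.19 (adjusted p = 0.0109) and *Nkg7* at 0.90. *Prf1* (0.40, adjusted p = 0.201) was not called and *Eomes* was at −0.05 (0.937).

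By timepoint, 5 members were called at ZT3, all of them higher as at the other times (5.2% of all genes were called there in either direction), 4 at ZT9 (8.94%), 3 at ZT15 (14.8%) and 2 at ZT21 (14.2%). *Klrb1c* and *Ncr1* were called at each of the 4. *Klrb1c* differed by 1.82 at ZT3, 2.703 at ZT9, 1.98 at ZT15 and 3.16 at ZT21, and *Ncr1* by 1.77, 2.83, 1.58 and 2.696. *Gzma* was called at ZT3 (2.31) and ZT9 (2.72), and *Nkg7* at ZT3 (1.22), ZT9 (1.65) and ZT15 (0.96, adjusted p = 0.0490). *Klre1* was called at ZT3 alone (1.43, adjusted p = 0.0259). That the number of calls fell from ZT3 to ZT21 does not show a difference between timepoints: limma's interaction of label with time called 0 members and 6 genes in all (0.0502%), with 1 member at an unadjusted p under 0.05. With 3 mice under the label at each time, leaving out KO replicate 1 or 3 at ZT3 brought the ZT3 count to 0, and leaving out KO replicate 1 at ZT15 brought the ZT15 count to 0.

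Of the members, 4 lie near *Clec9a*, where the mice labelled KO carry Cre. Between *Klrb1c* and *Klrk1*, a span of 0.845 Mb, 13 genes that are not members were tested. *Klrb1b*, *Klrb1f*, *Clec2d*, *Cd69* and *Clec7a* were higher under the KO label, and *Clec9a* and *Clec1a* were lower. *Clec9a* itself measured 0.315, 1.81 and 3.30 CPM in control mice with tumour cells, 0, 0.589 and 2.94 under the KO label and 1.38, 5.22 and 8.32 in sham mice. Its difference under the label was −0.83 ± 0.19 (adjusted p = 0.00179). Any part of the targeted locus or its flanking chromosome in the levels of the 4 was not tested.

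The levels under the KO label were next set against sham mice, a comparison added after the data were seen. The 10 members all had a lower estimate with tumour cells under the label, and 4 were called: *Gzma* (−1.77, adjusted p = 0.0147), *Gzmb* (−1.80, 0.0143), *Ncr1* (−1.22, 0.0138) and *Prf1* (−1.12, 0.0393), where 9.73% of all genes differed. The *Prf1* call was lost in 13 of 24 omissions of a single library, with an adjusted p of up to 0.0700. *Nkg7* (−0.75, adjusted p = 0.0729) and *Klrb1c* (−0.72, 0.135) were not called, so for these 2 the groups are not shown to differ. Without the 2 sham libraries that stood apart, *Gzma* (−1.41, adjusted p = 0.0478) and *Ncr1* (−0.97, 0.0422) remained called, while *Gzmb* (−1.58, 0.0520) and *Prf1* (−0.85, 0.109) did not, and *Nkg7* (−0.53, 0.210) and *Klrb1c* (−0.45, 0.347) stayed uncalled. Without sham replicate 1 at ZT3 as well, 0 members were called, with *Gzma* at −1.29 (adjusted p = 0.0799), *Gzmb* at −1.52 (0.0841), *Ncr1* at −0.90 (0.0737) and *Prf1* at −0.80 (0.166). Of all 11963 genes, 1164 were called with all libraries, 548 without the 2 sham libraries and 363 without the 3. The loss of calls is therefore not read as particular to the members. Without the 2 KO libraries instead, 8 members were called, all lower, the 4 additional ones being *Nkg7* (−0.99, adjusted p = 0.0173), *Klrb1c* (−0.96, 0.0423), *Klrk1* (−0.53, 0.0318) and *Klre1* (−1.19, 0.0322). The share of all genes called in that setting is not given here, so the higher count is not read as particular to the members. No member was called at a single timepoint, where 0.1% of all genes were called at ZT3, 0.468% at ZT9, 2.77% at ZT15 and 0.51% at ZT21, nor in the interaction with time (0 of all genes by limma, 1398 at an unadjusted p under 0.05). In none of the members were all 12 libraries labelled KO below all 12 sham libraries (0.0836% of all genes). For *Gzma*, *Gzmb*, *Ncr1* and *Prf1*, the order of the 3 groups was control mice with tumour cells, libraries labelled KO and sham mice, with each neighbouring pair called when all libraries were used. The step from the KO label to sham mice was thus not called for any of them without the 3 sham libraries, and both steps of *Prf1* were lost on leaving out single libraries.

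Time of day was then examined within each group. In control mice with tumour cells, a test of any difference among the 4 timepoints called 3 members, *Nkg7*, *Klre1* and *Ncr1*, where 5.28% of all genes were called. *Nkg7* measured 22.3, 17.2, 34.7, 17.9 and 14.9 CPM at ZT3, 11.0, 12.8, 13.8, 12.1 and 12.01 at ZT9, 21.1, 36.1, 22.6, 17.0 and 30.8 at ZT15, and 24.8, 28.2, 27.1, 25.5 and 25.4 at ZT21. The 5 mice at ZT9 were below every mouse of the other times. Between the lowest and highest mean the log2 range was 1.06 (adjusted p = 0.0136), and ZT9 was 2.08-fold below ZT21 (−1.06 ± 0.20, adjusted p = 0.0332), a contrast in which 0.226% of all genes differed. This ZT9 call was lost when any 1 of the 10 libraries at ZT9 or ZT21 was left out, over an adjusted p of 0.00761 to 0.0960 across all omissions.

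*Ncr1* had its highest mean at ZT3, with 3.68, 2.42, 0.978, 3.19 and 1.09 CPM, and similar at ZT15, with 3.61, 2.74, 0.863, 2.37 and 0.784. At ZT9 it measured 0, 0.6501, 0.647, 0.574 and 0.709 CPM, and at ZT21 1.15, 0, 0.299, 0.0818 and 0.606, so that the times overlapped but ZT9 lay wholly below ZT3 and ZT15. The range of means was 1.59 (adjusted p = 0.0297). *Klre1* was highest at ZT15, with 1.98, 2.15, 1.04, 1.27 and 2.06 CPM, and its range was 0.84 (adjusted p = 0.0259). *Ncr1* and *Klre1* rest on few reads, with medians of 20 reads per library each. For *Nkg7* the means at ZT21 (26.2 CPM) and ZT15 (25.5) were close, as were those of *Ncr1* at ZT3 (2.27) and ZT15 (2.07), and the time of the highest level was not tested. The call of *Ncr1* was lost in 6 of 20 omissions of a library (adjusted p up to 0.0560) and in 2 of 8 settings, and that of *Klre1* in 3 of 20 (up to 0.0852) and in 2 of 8, while that of *Nkg7* was kept in all. Without control tumour replicate 1 at ZT15, only 1 of the 3 calls was left. A 24-h sine curve fitted to each member called 0, against 3 genes in all (0.0251%), with 2 members at an unadjusted p under 0.05.

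Neither of the other groups gave a time-of-day call among the members. In libraries labelled KO the test among timepoints called 0 members and 0 genes by limma, with 1232 genes and 0 members at an unadjusted p under 0.05, and in sham mice 0 members and 0 genes, with 890 genes and 0 members at an unadjusted p under 0.05. ZT9 against ZT21 called 0 members in either group and 1 gene in all in libraries labelled KO (0.00836%). These groups had 3 mice per timepoint against 5, and the difference in rhythm between groups is tested only by the interactions above, which called no member.

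**Figure D3:**
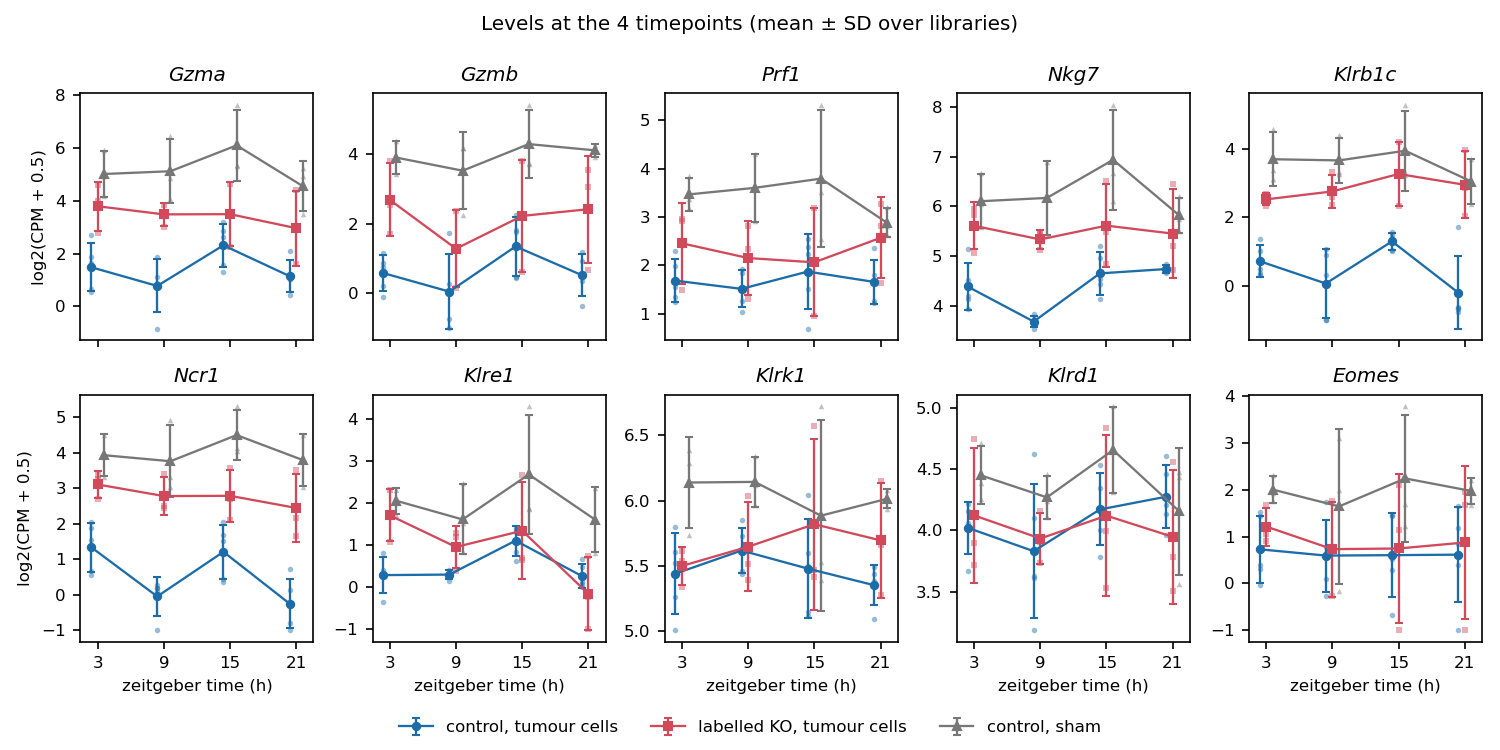
Level of the members at ZT3, ZT9, ZT15 and ZT21 (x axis, zeitgeber time of injection in hours) as log2(CPM + 0.5), with small points for single mice and larger symbols and bars for the mean ± SD of each group. *Nkg7* in control mice with tumour cells dips at ZT9, where its 5 mice lie between 11.0 and 13.8 CPM; for *Gzma*, *Ncr1* and *Nkg7* the mean of control mice with tumour cells is lowest and that of sham mice highest at each time.

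The members moved together from mouse to mouse. With every condition centred on its own mean, the 36 pairs of members without *Klrd1* had correlations (Pearson's r over 44 libraries, a description with shared libraries and depth) of 0.20 to 0.74, with a median of 0.54. The 9 pairs with *Klrd1* had r of −0.125 to 0.119. Against the mean of the other members, *Nkg7* (0.82), *Prf1* (0.81), *Gzma* (0.73) and *Gzmb* (0.71) followed closest, then *Klre1* (0.69), *Ncr1* (0.65), *Klrk1* (0.62), *Klrb1c* (0.55) and *Eomes* (0.53), whereas *Klrd1* stood at 0.04. The co-variation lay mostly in 2 of the groups: the median of the 36 pairs was 0.824 in sham mice and 0.727 in libraries labelled KO, but 0.0783 in control mice with tumour cells. Median reads per library in the last group ran from 20 for *Ncr1* and *Klre1* over 49.5 for *Gzma* to 511 for *Nkg7* and 1053 for *Klrk1*, and the r of each member there with the mean of the other members from −0.415 for *Eomes* to 0.575 for *Prf1*. The part of read number in these correlations was not tested. The correlations depended on the 2 sham libraries that stood apart: without them the median of the 36 pairs was 0.426 over 42 libraries (0.0116 to 0.722), 0.559 in the 10 other sham libraries (−0.132 to 0.961), 0.411 in the 9 sham libraries left without replicate 1 at ZT3 as well (−0.217 to 0.97), and *Klrd1* stood at −0.0655. Without the 2 KO libraries that stood apart, the median of the 36 pairs was 0.455 over 42 libraries (0.0684 to 0.703) and 0.513 in the 10 other libraries labelled KO (−0.796 to 0.98).

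**Figure D4:**
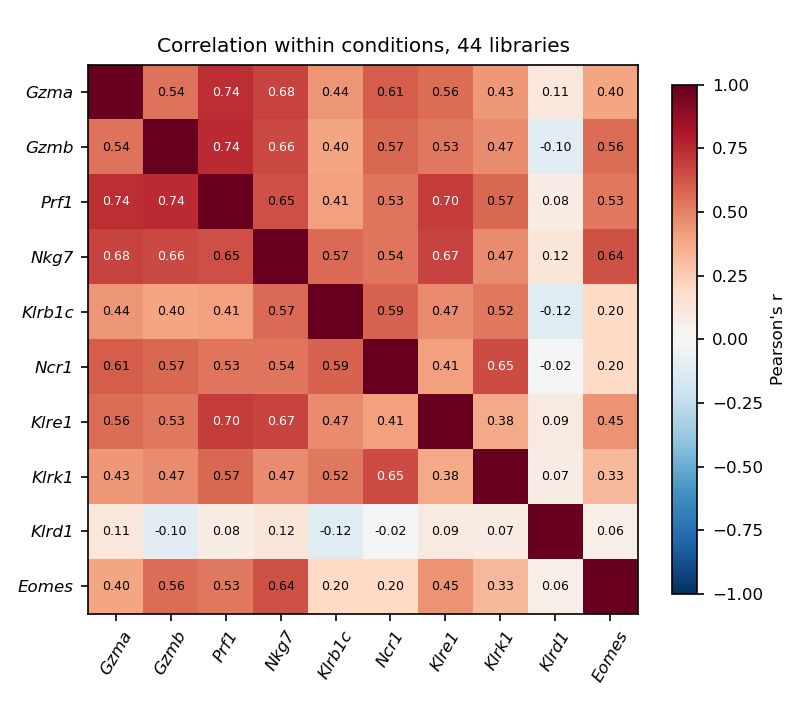
Pearson correlation between members over the 44 libraries after each of the 12 conditions was centred on its mean, as a colour and a value for each pair. *Klrd1* is pale against all others (r of −0.125 to 0.119), while the other pairs reach 0.74.

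The genes outside the set whose centred levels were most like the members' mean were *Ctsw* (r = 0.86), the gene for a cathepsin of NK and cytotoxic T cells, *Icos* (0.84), a T cell costimulator, *Actn2* (0.82), *Hsd11b1* (0.80), *Cd3g* (0.79), a chain of the T cell receptor complex, *Shisa5* (0.78), *Ltb* (0.76) and *Skap1* (0.74). *Ctsw* had medians of 11.9 CPM in control mice with tumour cells, 24.6 under the KO label and 32.6 in sham mice. *Icos* had medians of 53.0, 102.6 and 160.3 CPM, and *Cd3g* of 57.2, 72.9 and 113.4. In these 3 genes the median was lowest in control mice with tumour cells and highest in sham mice, as it was in 9 of the members but not in *Klrd1*. Without the 2 sham libraries that stood apart, the r of these 8 genes was 0.61 to 0.774 over 42 libraries, with *Ctsw* at 0.774 and *Icos* at 0.76, and without the 2 KO libraries it was 0.691 to 0.875.

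Other genes of the NK and cytotoxic programme were read from lists that leave out the members and were written with earlier results of these data known. Of 30 NK receptors and associated genes tested, 24 were lower and 1 was higher with tumour cells than in sham mice (median difference −1.50; 22 and 0, with a median of −1.29, without the 2 sham libraries that stood apart), and 19 were higher and 2 lower under the KO label (median 0.57; 14 and 2, with a median of 0.55, without the 2 KO libraries). Of these 30 genes, 12 did not reach the filter within the control tumour libraries alone and were tested through their levels in the other groups, so that the filter in part fixed the direction of these counts. Of the 7 genes with a mean of at least 10 CPM over all libraries, 5 were lower and 0 higher with tumour cells (median −0.85, against −0.03 over all 7928 genes of that level), and 4 were higher and 1 lower under the label (median 0.42). Such a mean can also be reached through the other groups. The member *Gzma* passed it with a mean of 2.81 CPM in control tumour and 49.9 in sham libraries. These counts are thus not free of the filter either. *Il2rb*, the β chain of the receptors for interleukins 2 and 15, had medians of 27.3, 58.3 and 66.5 CPM in control tumour, KO and sham libraries. It differed by −1.58 ± 0.11 with tumour cells (adjusted p = 1.03e-11) and by 1.25 ± 0.10 under the label (adjusted p = 5.30e-10). *Cd160*, a receptor of NK cells and intraepithelial lymphocytes, had medians of 4.51, 14.3 and 19.9 CPM and differed by −2.18 and 1.71. The adaptor gene *Tyrobp*, which is also expressed by myeloid cells, was at 502.7, 429.4 and 466.7 CPM and differed by −0.00 with tumour cells and −0.21 under the label (adjusted p = 0.0239).

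Of 20 further granule and effector genes, 11 were lower and 3 higher with tumour cells (median −0.24; 9 and 2 without those 2 libraries), and 9 were higher and 2 lower under the KO label (median 0.29; 9 and 2 without the 2 KO libraries). Here 2 of the 20, *Gzmc* and *Gzmm*, reached the filter only with the other groups. Of the 14 with a mean of at least 10 CPM over all libraries, which the other groups can also raise, 6 were lower and 4 higher with tumour cells. Their median was −0.04, against −0.03 over all 7928 genes of that level, of which 2090 were lower and 1266 higher. Under the label 4 of the 14 were higher and 2 lower (median 0.05), against 2320 and 962 of the 7928 (median 0.10). Chemokine genes were among those that fell: *Ccl4* had medians of 6.06, 25.9 and 64.1 CPM (−3.57 ± 0.21 with tumour cells, adjusted p = 2.89e-13), and *Xcl1* of 3.06, 20.3 and 22.4 CPM (−2.80 ± 0.26, adjusted p = 1.53e-09). *Gzmc*, another granzyme gene, had medians of 0.344, 3.46 and 11.99 CPM. Since it passed the filter only through the other groups, the filter in part fixed its direction. *Ccl5*, also made by DCs, was at 6994, 6959 and 8442 CPM and differed by only −0.24 (adjusted p = 0.0276). Of 10 transcription factors of NK and innate lymphoid cells, 7 were lower and 1 higher with tumour cells (6 and 1 without them), and 5 were higher and 1 lower under the label (5 and 1 without the 2 KO libraries). *Tbx21*, the gene for T-bet, had medians of 1.29, 4.56 and 8.97 CPM, and *Gata3* of 8.35, 19.2 and 29.3. Neither is the gene called higher with tumour cells or the gene called lower under the label. Both are a small part of the list, whose sum ran from 2044 to 3534 CPM in control tumour, 2658 to 3502 in KO and 2882 to 3630 in sham libraries.

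**Figure D5:**
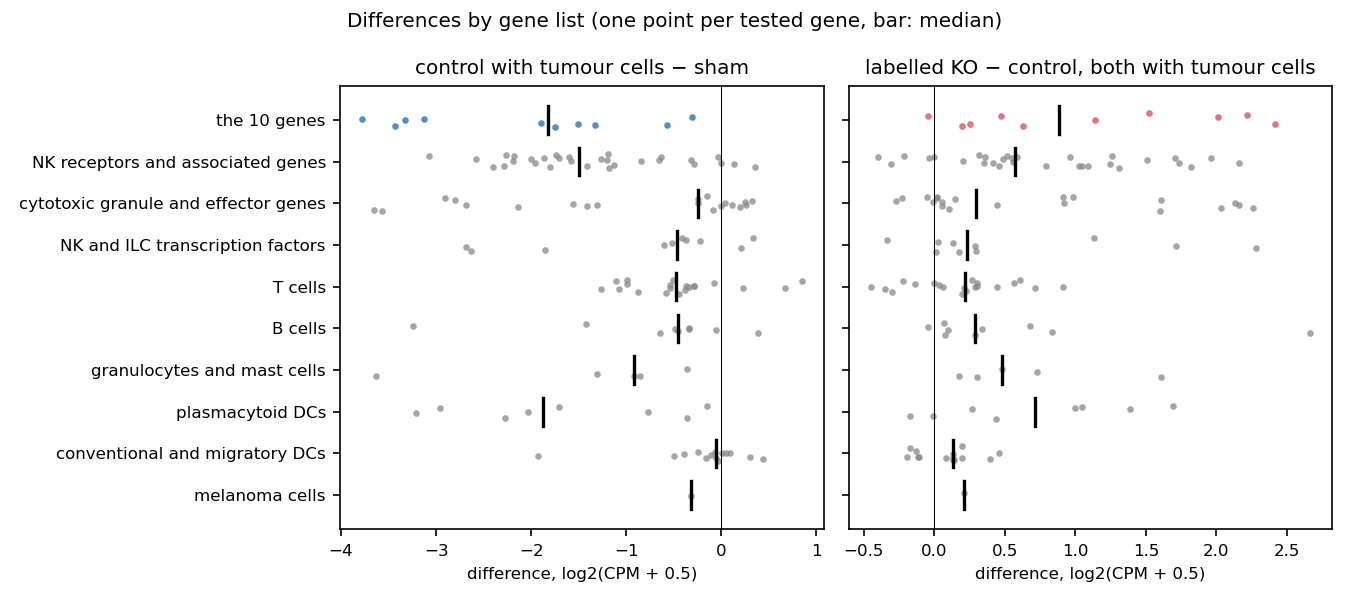
Log2 differences of the tested genes of each list (points) with the list median (black bar), for tumour cells against sham in control mice and for the KO label against control, on the log2(CPM + 0.5) scale. In the first comparison the medians are −1.50 for NK receptors, −1.87 for plasmacytoid DC genes and −0.06 for conventional DC genes. Among genes with a mean of at least 10 CPM over all libraries they are −0.85 for 7 NK receptor genes and −0.77 for 5 plasmacytoid DC genes. That mean can also be reached through the other groups. Of the 30 NK receptor genes, 12 passed the filter only with the other groups, which in part fixes where they lie.

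In part, markers of other cell types were lower with tumour cells and higher under the KO label, to be read against 24.6% of all genes lower in the first comparison and 23.5% higher in the second. Of 20 T cell genes, 15 were lower and 2 higher with tumour cells, and 6 were higher and 2 lower under the KO label, with summed levels of 718.8 to 1266 CPM in control tumour, 874.6 to 1779 in KO and 974.4 to 1920 in sham libraries. *Cd3e*, a chain of the T cell receptor complex, differed by −0.88 ± 0.13 and 0.61 ± 0.11, and *Tcf7*, a factor of naive T cells, by 0.85 and −0.35, each opposite to *Cd3e*. Of 8 plasmacytoid DC genes, 7 were lower with tumour cells and 5 higher under the label, with sums of 170.1 to 265.4, 155.1 to 372.6 and 287.8 to 439.6 CPM. *Siglech*, a receptor of those cells, had medians of 6.12, 19.9 and 45.4 CPM. Of 9 B cell genes, 5 were lower with tumour cells and 3 higher under the label, with sums of 44.5 to 73.3, 56.1 to 172.5 and 83.3 to 137.9 CPM. Of 5 mast cell and granulocyte genes tested, 4 did not reach the filter within the control tumour libraries alone, nor within the libraries labelled KO alone. The filter thus in part fixed the direction of their count against sham mice. Of the 5, 2 were lower with tumour cells and 2 higher under the label. The sums of the whole list ran from 0.0884 to 49.4, from 2.99 to 64.2 and from 13.7 to 124.0 CPM.

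Of 14 conventional DC genes, 4 were lower and 2 higher with tumour cells, and 1 was higher under the label. Of the melanoma genes 1 of 5 passed the filter and it was not called in either comparison, and *Dct*, *Mlana* and *Tyrp1* were at 0 in every sham library. The sum of the 5 was low in all groups, with medians of 1.09 CPM in control tumour, 1.31 in KO and 1.16 in sham libraries. Over the 44 libraries, the mean of each list centred within conditions had an r with the members' mean of 0.847 for NK receptors, 0.717 for T cells, 0.601 for cytotoxic genes, 0.562 for transcription factors, 0.285 for plasmacytoid DCs, 0.117 for mast cells and granulocytes, −0.0384 for B cells and −0.414 for conventional DCs. Without the 2 sham libraries that stood apart, the tumour-against-sham counts were 12 lower and 2 higher for T cells, 7 lower for plasmacytoid DCs, 5 lower for B cells, 2 lower for mast cells and granulocytes and 3 lower and 2 higher for conventional DCs, and the r with the members' mean was 0.740 for NK receptors, 0.6247 for T cells, 0.574 for cytotoxic genes, 0.429 for transcription factors, 0.291 for plasmacytoid DCs, −0.256 for mast cells and granulocytes, 0.0755 for B cells and −0.299 for conventional DCs. Without the 2 KO libraries that stood apart, the counts higher under the label were 5 for T cells, 4 for plasmacytoid DCs, 3 for B cells, 1 for mast cells and granulocytes and 2 for conventional DCs, and the r was 0.832 for NK receptors and 0.643 for T cells. The part of any of these cell types, of sorting purity or of depth in the levels of the members was not tested.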

How the data were processed

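Cells sorted from the draining lymph nodes of 44 mice were made into SMART-Seq v4 and Nextera XT libraries. The authors sequenced single 50-base reads on an Illumina HiSeq instrument, mapped them with STAR to mm10, counted them over genes with HTSeq 0.9.1 and scaled them by library size in edgeR. The deposited values are CPM (counts scaled to library size), and every column was assigned to a library by its name (0 columns were left unused). Reads on genes were 20088011 to 55799162 per library. Of the CPM values, 87.4 to 89.2% were whole multiples of 1 read (within 0.01 reads), too few for a count test.

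The 11963 genes that reached 1 CPM in 5 or more of the 44 libraries were tested, and 2736 were not. log2(CPM + 0.5) was fitted with limma 3.58.1 in R 4.3.3 on the groups compared, with Benjamini-Hochberg adjustment over all tested genes and a threshold of 0.05, and the fit was tested on simulated data. Timepoints were compared by an F test, by the contrast of ZT9 with ZT21 and by a 24-h cosinor within each group. Tables were made with Python 3.11.15, numpy 2.4.6 and pandas 2.3.3. The members and lists were chosen with earlier results of these data known. All 10 members are named. For other genes, the rule fixed at the start took those of highest mean level in each list, those of smallest p in a comparison and those most like the members. The genes named in the text are a selection, and not every gene under that rule is named. The replicate is the mouse, so p-values measure the spread between mice. The labels do not say which mice belonged to which of the independent experiments, so batch could not be fitted. Alternatives were the pseudocount, scaling, filter, moderation, an intensity trend, weights per library, a block for the replicate number and the omission of each library.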

Additional observations from a re-analysis of the deposited data

Results flagged for a closer look

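In control mice with tumour cells, whose timepoints hold 5 mice each, 4 member values stood far from the other mice of their timepoint by Dixon's test, out of 40 sets of 5 tested, where chance gives about 1 in 20. *Gzma* at ZT21 was 3.76 CPM in replicate 1 and 0.846 to 1.69 in the other 4 mice. *Klrb1c* at ZT21 was 2.78 CPM in the same mouse and 0.0804 to 0.153 in the others. *Gzmb* at ZT9 was 2.83 CPM in replicate 2 and 0 to 0.709 in the others. *Ncr1* at ZT9 was 0 in replicate 1 and 0.574 to 0.709 CPM in the others. All 4 concern genes near 1 CPM.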

How the results depend on the processing

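Counts of called members (of 10) were recomputed under 9 alternatives fixed at the start and with each library left out. A mean of at least 10 CPM left 4 members to test, and most counts then fell, since the other 6 members were not tested: tumour cells against sham from 9 to 4 averaged, from 7 to 3 at ZT3, from 7 to 2 at ZT9, from 7 to 2 at ZT15 and from 6 to 2 at ZT21; KO label against control from 6 to 2 averaged, from 5 to 2 at ZT3, from 4 to 2 at ZT9, from 3 to 1 at ZT15 and from 2 to 1 at ZT21; the test among timepoints in control tumour mice from 3 to 1; KO label against sham from 4 to 2 averaged. KO label against sham at ZT15 rose from 0 to 1 under this filter. For that rise and the other settings the cause was not tested. The KO label against control count at ZT3 (5) became 1 with a pseudocount of 0.1 and 3 with median-of-ratios scaling, and at ZT15 (3) it became 0 and 1. With array weights it became 6 at ZT21 (from 2), the cosinor count in control tumour mice 1 (from 0), and KO label against sham 8 averaged (from 4) and 1 at ZT21 (from 0). Median-of-ratios scaling brought ZT9 against ZT21 in control tumour mice from 1 to 0. An intensity trend brought KO label against sham at ZT15 from 0 to 2, and leaving out both high sham libraries (chosen after seeing the data) brought its averaged count from 4 to 2, and leaving out sham replicate 1 at ZT3 as well brought it to 0. Without these 3, *Arntl*, not called in either case, went from −0.14 to 0.0104 in that comparison. Leaving out KO replicate 1 at ZT15 and KO replicate 3 at ZT21, also chosen after seeing the data, brought it from 4 to 8 and KO label against control at ZT15 from 3 to 0, and *Eomes* under the label, not called in either case, went from 0.26 to −0.0467.

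Replicate numbers did not pair the mice: deviations of same-numbered mice in different conditions correlated at −0.00307 on average over 210 pairs (−0.237 to 0.19), against 0.00107 over 672 pairs of different number. With the replicate number as a block, the counts for tumour cells against sham were 9 averaged and 7, 6, 7 and 4 at ZT3, ZT9, ZT15 and ZT21, those for KO label against control 5 averaged and 1, 4, 1 and 2, that for KO label against sham 4 averaged, the test among timepoints in control tumour mice 1, and all others 0, including ZT9 against ZT21 (from 1).

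Over the omissions of 1 library, the ranges were 9 to 10 for tumour cells against sham averaged, 6 to 8 at ZT3, 6 to 7 at ZT9, 5 to 7 at ZT15 and 4 to 8 at ZT21. They were 5 to 7 for KO label against control averaged, 0 to 5 at ZT3, 4 to 4 at ZT9, 0 to 3 at ZT15 and 2 to 4 at ZT21, and 3 to 6 for KO label against sham averaged. In control tumour mice they were 1 to 4 for the test among timepoints, 0 to 1 for ZT9 against ZT21 and 0 to 1 for the cosinor. For the tests against control mice at single timepoints and for the tests among timepoints, counts moved by over 1.5 times without KO replicates 1 and 3 at ZT3, KO replicate 1 at ZT15, KO replicate 1 at ZT21, control tumour replicate 1 at ZT15 (test among timepoints, 1) and control tumour replicate 3 at ZT3 (cosinor, 1), and ZT9 against ZT21 in control tumour mice fell to 0 without any 1 of its 10 libraries. Leaving out control tumour replicate 2, 3, 4 or 5 at ZT3 gave KO label counts at ZT3 of 1, 3, 3 and 2, and leaving out KO replicate 3 or control tumour replicate 3 or 5 at ZT15 gave 1 at ZT15. *Klrd1* under the KO label (−0.04) ranged from −0.133 to 0.0303 over the omissions and turned positive in 4 of them. Of all genes, the test among timepoints in control tumour mice called 632, and 341 with the block, 914 with a trend and 2462 with array weights; ZT9 against ZT21 called 27, and 15 with the block, 46 without moderation, 49 with a trend, 54 with the 10 CPM filter and 473 with array weights. KO label against control called 2813 higher and 1218 lower, and 1748 and 1753 with median-of-ratios scaling; KO label against sham called 649 and 515, and 466 and 720 with that scaling, 2494 in all with array weights and 548 without both high sham libraries. In control tumour mice the median read number of the members was 20 to 1053 per library.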
